A study of Homo sapiens with 14 samples.

Results

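The genes described here are the death receptor gene FAS, the 4 genes of the TRAIL receptor cluster (TNFRSF10A, TNFRSF10B, TNFRSF10C and TNFRSF10D), and ACTA2 and FAS-AS1, which overlap FAS or lie next to it. They were chosen by gene symbol, with earlier results of these data known, and make up 7 of the 28159 gene windows in the deposited count table. The assay was ChIP-seq, the sequencing of chromatin precipitated with an antibody, here 3E8 against RNA polymerase II that carries phosphate on Ser5 of its C-terminal repeats, a form found mainly at promoters. The cells were wild-type HCT116, a human colorectal carcinoma line with functional p53. Cells of every group were trypsinised and electroporated. They then spent 3 h either with Nutlin3a at 10 µM, a small molecule that keeps MDM2 from p53 so that p53 accumulates, or with the solvent DMSO at 0.1%. The peptide groups were electroporated with a bivalent stapled peptide at 10 µM and given a further 200 nM in the medium, while the other groups received water. Per the series title, the peptide is aimed at the binding of p53 to Mediator, a coactivator complex through which transcription factors reach the polymerase. The ChIP libraries were 1 for Nutlin3a with peptide, 1 for DMSO with peptide, 2 for Nutlin3a without peptide and 2 for DMSO without peptide. Each of these 4 conditions also had 2 inputs, which are sheared chromatin sequenced without the antibody. Whether replicates came from separate cultures is not stated in the labels, and if they did not, the p-values measure only the technical spread between these samples.

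Death receptors are cell surface proteins of the tumour necrosis factor receptor superfamily that trigger apoptosis when a ligand clusters them. FAS binds the ligand encoded by FASLG, while TNFRSF10A and TNFRSF10B bind TRAIL, the product of TNFSF10. The death domains of these receptors recruit the adaptor FADD, which in turn recruits and activates caspase-8. TNFRSF10C, which is tethered to the membrane without a death domain, and TNFRSF10D, whose death domain is truncated, also bind TRAIL and are known as decoy receptors. FAS and TNFRSF10B are well known p53 target genes with a p53 response element in their first intron. ACTA2 encodes smooth muscle alpha-actin, a marker of smooth muscle and myofibroblasts, and FAS-AS1 is a noncoding RNA transcribed antisense to FAS.

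Each window was 1000 bp long on hg38, so counts need no correction for length between genes. The windows differ in which part of a gene they cover, as described below, and this limits the comparison of levels between genes. The FAS window was chr10:88990498-88991497 and the ACTA2 window was chr10:88991098-88992097. They shared 400 bp, so reads in that stretch count for both genes, and FAS and ACTA2 values are not independent. The FAS-AS1 window, chr10:88992676-88993675, began 578 bp past the end of the ACTA2 window. The counts carry no stated strand, so reads from FAS, ACTA2 and FAS-AS1 in the same place cannot be told apart.

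The promoters of the first and inner FAS starts are shown because FAS was the gene of the 7 whose change passed the test. The RefSeq promoter table (GRCh38.p14) matched 3 of the 7 genes, namely FAS, ACTA2 and FAS-AS1. Each entry runs from 250 bp before to 50 bp after a start. The promoter of the first FAS start in that table lies at chr10:88990548-88990847 on the forward strand. The promoter of the inner FAS start lies at chr10:88991181-88991480 on the same strand. Capitals mark matches to GGGCGG on either strand, the core of the site of SP factors, and to the p53 half-site.
FAS first start: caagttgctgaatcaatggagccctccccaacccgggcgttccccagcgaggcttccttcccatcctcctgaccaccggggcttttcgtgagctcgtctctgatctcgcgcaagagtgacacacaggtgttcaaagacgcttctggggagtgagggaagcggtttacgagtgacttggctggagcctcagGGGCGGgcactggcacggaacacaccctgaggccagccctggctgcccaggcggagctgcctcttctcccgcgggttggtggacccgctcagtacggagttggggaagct
FAS inner start: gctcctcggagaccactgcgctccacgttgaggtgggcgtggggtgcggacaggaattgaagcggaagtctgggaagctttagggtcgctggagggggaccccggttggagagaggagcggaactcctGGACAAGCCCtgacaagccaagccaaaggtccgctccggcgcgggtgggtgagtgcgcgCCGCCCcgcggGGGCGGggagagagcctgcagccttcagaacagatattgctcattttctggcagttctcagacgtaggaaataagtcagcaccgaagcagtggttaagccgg
The 10-base capital run in the inner promoter is the p53 half-site match, at chr10:88991309-88991318, and it lies in the stretch that the FAS and ACTA2 windows share. This match is also downstream of the first FAS start. The capital runs of 6 bases are GGGCGG matches. The promoter of the divergent ACTA2 start overlaps the inner FAS promoter and holds the same p53 half-site match, with a further one at chr10:88991547-88991556 that lies in the ACTA2 window and outside the FAS window. This divergent ACTA2 start, at chr10:88991337, lies 94 bp from the inner FAS start, and the window of ACTA2 covers this start. The other ACTA2 start in the table lies 38.6 kb away, outside the window. Of 35116 RefSeq promoters of the same length, 6.63% held a p53 half-site match and 45.0% a GGGCGG match. TATAAA, present in 11.5% of promoters, CCAAT, present in 34.6%, and the CArG box, present in 1.29%, had no match on either strand in the promoters of FAS, ACTA2 and FAS-AS1. The first and inner FAS promoters had a GC content of 63.0% and 62.7%, with 18 and 22 CpG dinucleotides, against 37.7% and 1 CpG in the FAS-AS1 promoter. A match describes the letters of a sequence and does not show binding.

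The TRAIL receptor windows lay on chromosome 8 over 157 kb, in the order TNFRSF10B (chr8:23068732-23069731), TNFRSF10C (chr8:23102514-23103513), TNFRSF10D (chr8:23163728-23164727) and TNFRSF10A (chr8:23224803-23225802). Windows were placed on genomic coordinates without regard to strand. Among forward genes the commonest placement ran from 300 bp upstream of the start to 699 bp downstream, found for 7161 of 8682 genes with a start in the window, whereas among reverse genes it ran from 700 bp upstream to 299 bp downstream, found for 7249 of 8273. TNFRSF10A, TNFRSF10B and TNFRSF10D are reverse genes with this second placement, so their windows hold mostly sequence upstream of the gene. FAS and TNFRSF10C are forward genes.

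The ChIP libraries held 1290223 to 2240951 counts in the windows and the inputs 161719 to 359276. Levels are given as CPM, the count scaled to the library's total over all windows, and intervals on single libraries cover counting error only. The Nutlin3a replicate 1 library stood apart from the others: mitochondrial windows took 0.122% of its counts, while this share was 0.00948% to 0.0295% in the rest of the ChIP set, and its Spearman correlation with Nutlin3a replicate 2 over windows was 0.880, against 0.960 at the lowest among the replicate 2 libraries. DMSO replicates 1 and 2 correlated at 0.932, which is also below that lowest value. On the first principal component, the axis of largest variation between the ChIP libraries (53.3% of the variance), both replicate 1 libraries were negative. They were at -33.0 (DMSO) and -112 (Nutlin3a), while the replicate 2 libraries were at 16.15 to 46.5. Both peptide ChIP libraries are of replicate 2. The 10 epithelial markers, all detected in the DMSO and Nutlin3a libraries, summed to 1146 to 1354 CPM in the 3 Nutlin3a ChIP libraries and 1216 to 1502 CPM in the 3 DMSO ChIP libraries, above every input. KRT8, KRT18 and KRT19 made up most of these sums, at mean ChIP levels of 240, 277 and 278 CPM. Others lay below their own mean input: CDH1 (49.4 against 65.9 CPM), CDX2 (30.0 against 35.3), VIL1 (7.80 against 20.7) and CDX1 (6.23 against 13.6). The 10 mesenchymal markers, whose cells also use ACTA2, summed to 94.8 to 109 CPM under Nutlin3a and 63.1 to 106 CPM under DMSO. These sums were below the 144 to 256 CPM of the inputs. Of these markers LUM was at 0 in 1 Nutlin3a library, and DCN and COL3A1 were each at 0 in 1 DMSO library. The 6 blood markers summed to 33.0 to 59.7 CPM under Nutlin3a and 24.2 to 34.3 CPM under DMSO. In the fit without peptide, 7 of the 9 mesenchymal markers tested were positive (median log2 0.79), as were 5 of the 5 blood markers (0.46) and 2 of the 10 epithelial markers (-0.20), where the median of all windows was 0.044. In the fit averaged over peptide states, 8 of 9 mesenchymal markers (median 0.10), 3 of 5 blood markers (0.16) and 5 of 10 epithelial markers (-0.017) were positive, where the median of all windows was 0.0088. None of these markers passed the adjusted threshold, and their part in the results below was not tested.

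Polymerase at the FAS window was higher under Nutlin3a than under DMSO in each of the 3 available pairs of libraries. Without peptide, FAS had 97 counts in Nutlin3a replicate 1 and 156 in replicate 2, against 68 in DMSO replicate 1 and 54 in replicate 2. These are levels of 75.2 and 95.4 CPM under Nutlin3a (mean 85.3 ± 14.3, SD, n = 2) and 31.1 and 27.7 CPM under DMSO (mean 29.4 ± 2.43, SD, n = 2). With peptide, the level was 94.2 CPM under Nutlin3a (211 counts) and 35.5 CPM under DMSO (63 counts). All 3 Nutlin3a libraries thus lay above all 3 DMSO libraries. The Nutlin3a library with peptide lay between the Nutlin3a libraries without it, and the DMSO library with peptide had a counting interval (27.3 to 45.4 CPM) that included both DMSO libraries without it. The ratio of Nutlin3a to DMSO was 2.26 in replicate 1 (95% counting interval 1.64 to 3.13), 3.36 in replicate 2 (2.45 to 4.67) and 2.67 in replicate 2 with peptide (2.00 to 3.59). In bulk chromatin, more cells with polymerase at FAS and more polymerase per cell cannot be told apart.

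**Figure D1:**
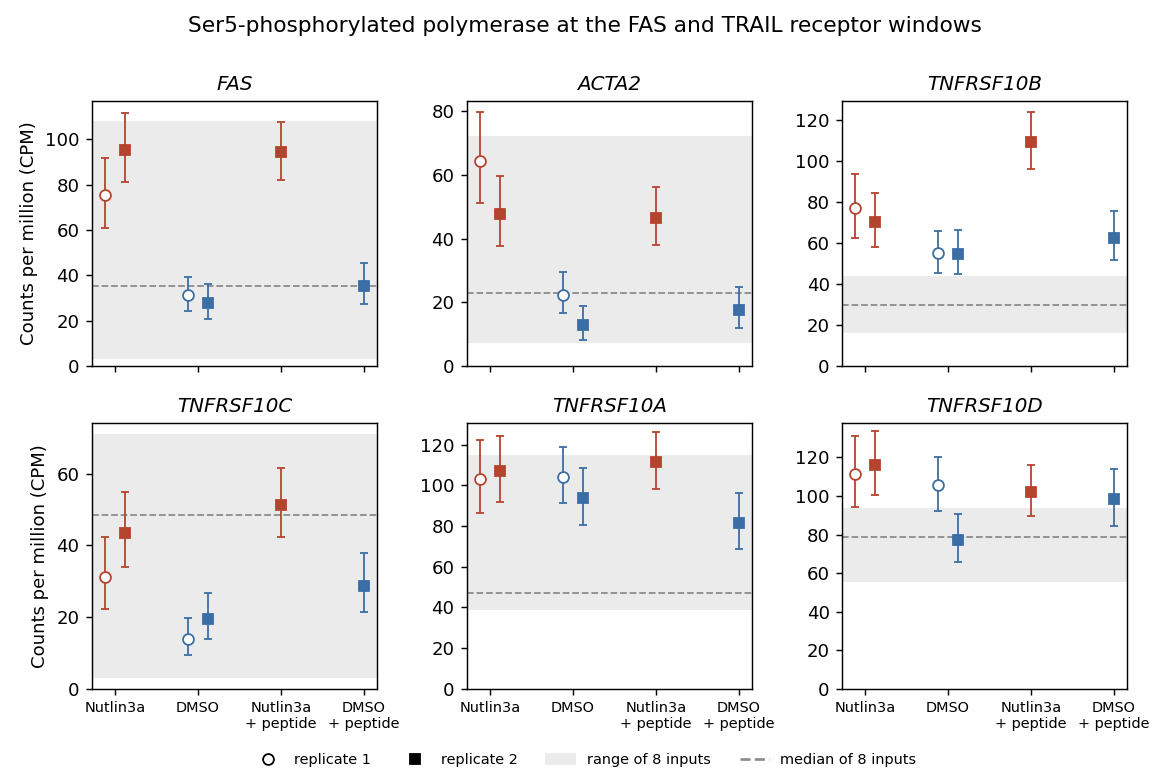
Level of Ser5-phosphorylated polymerase (CPM) at 6 windows in each of the 6 ChIP libraries, with 95% Poisson counting intervals; open circles are replicate 1, filled squares replicate 2, the grey band is the range of the 8 inputs and the dashed line their median. At FAS the 3 Nutlin3a libraries sit between 75.2 and 95.4 CPM and the 3 DMSO libraries between 27.7 and 35.5 CPM, whereas at TNFRSF10A and TNFRSF10D the treatments overlap.

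In the fit to all 6 ChIP libraries (edgeR's quasi-likelihood test, Benjamini-Hochberg adjustment over 25901 windows), FAS rose under Nutlin3a by 1.44 ± 0.21 in log2 when averaged over the states with and without peptide. This is a 2.72-fold change (95% interval 2.00 to 3.69) with an adjusted p of 0.0128. FAS was 1 of 10 windows called higher in that comparison, which is a background of 0.0386%, and was the only one of the 7 genes to pass. Between the 4 libraries without peptide, the difference was 1.47 ± 0.25 in log2 and the adjusted p was 0.0986. None of the 7 genes passed there, in a fit without a replicate block (a term for the replicate number), and 2 windows did overall (0.00772%). These 2 comparisons share libraries, so the second does not add to the first. With the replicate block, FAS (edgeR, adjusted p = 1.26e-06) and ACTA2 (1.39e-05) passed without peptide, and 39 windows were called there. At FAS the standard error was 0.234 with the block and 0.246 without it, while the unadjusted edgeR p went from 1.61e-05 to 4.37e-10. The block leaves fewer residual degrees of freedom, so its small p-values rest in large part on degrees of freedom borrowed from the other windows. FAS in the averaged comparison was called in 12 of 13 alternative settings and lost with the authors' scaling constants, where the change was 1.87 and the adjusted p 0.774. These constants, 1 per library, lie behind a scaled signal that was also deposited. They were 1.82 for Nutlin3a replicate 1 and 0.595 to 0.748 for the other ChIP libraries, and they moved the median of all windows to 0.46 in log2. Without peptide it was called in 6 of 13, among them without DMSO replicate 1 (adjusted p = 0.0180), without Nutlin3a replicate 1 (3.97e-06) and without Nutlin3a replicate 2 (0.0230). It did not pass without DMSO replicate 2 (0.674).

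ACTA2 had the same direction as FAS, from fewer reads. It had 64.3 and 47.7 CPM under Nutlin3a without peptide (83 and 78 counts), against 22.4 and 12.8 CPM under DMSO (49 and 25 counts). With peptide it had 46.4 CPM under Nutlin3a and 17.5 CPM under DMSO. No Nutlin3a library overlapped a DMSO library. The fitted difference was 1.50 ± 0.29 in log2 in the averaged comparison, with an adjusted p of 0.160, and 1.58 ± 0.34 without peptide, with an adjusted p of 0.522. ACTA2 therefore did not pass the threshold in this fit, which has no replicate block. With the block ACTA2 passed in both comparisons (edgeR, adjusted p = 8.28e-07 averaged and 1.39e-05 without peptide), under the limit of the block fit given above. It passed in 5 of 13 alternatives of the averaged comparison, including without DMSO replicate 1 (adjusted p = 0.00235), without Nutlin3a replicate 1 (0.00286) and without Nutlin3a replicate 2 (0.00182). It did not pass without DMSO replicate 2 (0.132). Without peptide it passed when DMSO replicate 1 (0.00729) or Nutlin3a replicate 2 (0.0100) was left out. Without DMSO replicate 2 the difference was 1.22 in log2 and the adjusted p 1.00, while without DMSO replicate 1 it was 2.09.

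How much of the ACTA2 value comes from the 400 bp shared with FAS was not tested, since the table gives 1 count per window. The ACTA2 count divided by the FAS count was 0.856, 0.500 and 0.493 in the Nutlin3a libraries (replicate 1, replicate 2, replicate 2 with peptide), against 0.721, 0.463 and 0.492 in the DMSO libraries in the same order. The ratio was higher in both replicate 1 libraries than in the 4 replicate 2 libraries, which all lay between 0.463 and 0.500. The mesenchymal markers described above ran in the same direction as ACTA2 in most cases, though their summed level lay below that of the inputs. In the averaged comparison their median was 0.10 in log2, against 1.50 at ACTA2. Their part in the ACTA2 value was not tested. TAGLN, which encodes the smooth muscle protein transgelin, had 33.3, 39.8 and 46.4 CPM in the Nutlin3a libraries (replicate 1, replicate 2, replicate 2 with peptide), against 31.6, 43.0 and 40.5 CPM in the DMSO libraries in the same order. These levels overlapped between treatments, and all were at or above its mean input of 31.5 CPM. TAGLN is an exception in its list. It was 1 of the 2 mesenchymal markers with a negative value without peptide (-0.085 in log2), while 7 of the 9 tested were positive and the median was 0.79.

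FAS-AS1 was near the limit of detection. It had 15 counts in Nutlin3a replicate 1, 1 in replicate 2 and 1 with peptide, against 5 in DMSO replicate 1, 0 in replicate 2 and 0 with peptide. Thus 20 of its 22 ChIP counts came from the replicate 1 libraries. All 8 inputs had 0 counts there, which allows up to 1.51 CPM over the summed input, and 784 windows (2.78%) were at 0 in every input. The window entered the test through the count of Nutlin3a replicate 1, so no fold change is given for it. The promoter of FAS-AS1 is the one of low GC content described above.

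**Figure D2:**
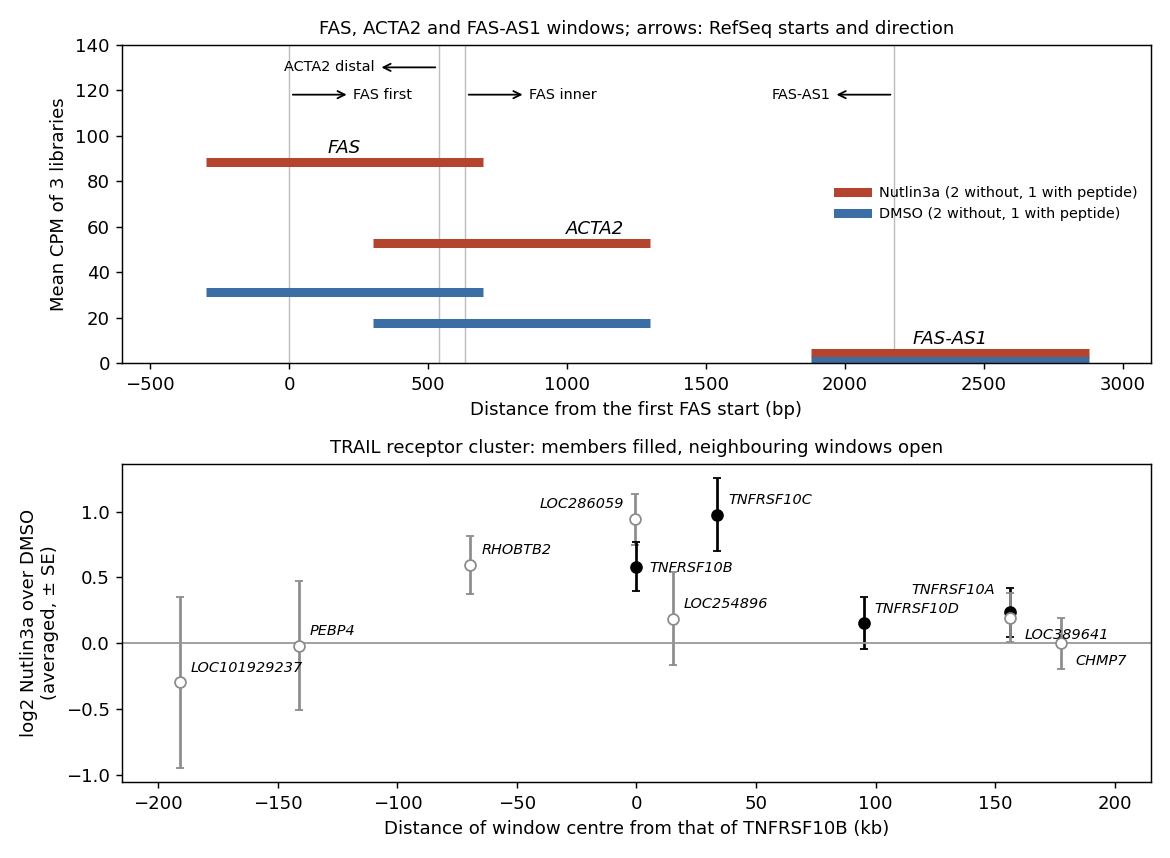
Top, the FAS, ACTA2 and FAS-AS1 windows drawn as bars at their position (bp from the first FAS start) and at their mean CPM over the 3 Nutlin3a or the 3 DMSO libraries, with RefSeq starts and directions as arrows. Bottom, fitted log2 change (± SE) under Nutlin3a against DMSO, averaged over peptide states, at the windows within 200 kb of TNFRSF10B, with TNFRSF10B and TNFRSF10C above 0.5 and TNFRSF10D and TNFRSF10A below 0.25.

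In the TRAIL receptor cluster, the decoy receptor gene TNFRSF10C had the largest fitted difference. Its levels were 31.0 and 43.4 CPM under Nutlin3a without peptide, against 13.7 and 19.5 CPM under DMSO. With peptide they were 51.3 CPM under Nutlin3a and 28.7 CPM under DMSO. The treatments did not overlap, though the lowest Nutlin3a library, at 31.0 CPM, was close to the highest DMSO library, at 28.7 CPM. The ratio of Nutlin3a to DMSO was 2.11 in replicate 1, 2.17 in replicate 2 and 1.80 with peptide. The averaged difference was 0.98 ± 0.28 in log2, with an unadjusted p of 0.00256 and an adjusted p of 1.00, so it did not pass over all windows. It passed in 2 of 13 alternatives, among them the fit to the replicate 2 libraries alone (adjusted p = 0.0154), a choice made after the data were seen. TNFRSF10C was also the only one of the 6 genes other than FAS-AS1 whose ChIP level was on average below its input, with a ratio of 0.711. The median of the tested windows was 0.713, so this ratio is typical of them.

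TNFRSF10B, the TRAIL death receptor gene known as a p53 target, had a smaller difference. It had 76.7 and 70.3 CPM under Nutlin3a without peptide, against 54.9 and 54.8 CPM under DMSO. With peptide it had 109 CPM under Nutlin3a and 62.5 CPM under DMSO. The 3 Nutlin3a libraries lay above the 3 DMSO libraries, with the peptide library the highest. The counting interval of the ratio included 1 in replicate 1 (1.31, 0.992 to 1.72) and in replicate 2 (1.25, 0.953 to 1.64), and not with peptide (1.76, 1.40 to 2.22). The averaged difference was 0.58 ± 0.19 in log2, a 1.50-fold difference (95% interval 1.14 to 1.97), with an unadjusted p of 0.00599 and an adjusted p of 1.00. It did not pass in any of the 13 alternatives.

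A second window covers the beginning of the TNFRSF10B gene body. LOC286059, which RefSeq lists by accession as TNFRSF10B-AS1, has its window from 103 to 1102 bp past the TNFRSF10B start, overlapping the TNFRSF10B window by 197 bp. Its levels were 82.2 and 75.2 CPM under Nutlin3a without peptide, against 35.7 and 43.5 CPM under DMSO. With peptide they were 95.9 CPM under Nutlin3a and 49.6 CPM under DMSO. Every Nutlin3a library lay above every DMSO library. The averaged difference was 0.94 ± 0.20 in log2 (1.92-fold), with an unadjusted p of 0.000166 and an adjusted p of 0.226. Reads of TNFRSF10B and of its antisense gene cannot be told apart in this window. The difference between the 2 windows was not tested.

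TNFRSF10A, the other TRAIL death receptor gene, had 103 and 107 CPM under Nutlin3a without peptide, against 104 and 93.7 CPM under DMSO. With peptide it had 112 CPM under Nutlin3a and 81.7 CPM under DMSO, so the libraries of the 2 treatments overlapped. The averaged difference was 0.24 ± 0.19 in log2 (95% interval -0.16 to 0.63). TNFRSF10D, the decoy receptor gene with a truncated death domain, had 112 and 116 CPM under Nutlin3a without peptide, against 106 and 77.3 CPM under DMSO. With peptide it had 102 CPM under Nutlin3a and 98.5 CPM under DMSO. Its averaged difference was 0.15 ± 0.20 in log2 (95% interval -0.27 to 0.57). For both genes the adjusted p was 1.00, and the intervals allow a change of up to 1.55-fold at TNFRSF10A and 1.48-fold at TNFRSF10D. LOC389641, listed in RefSeq by accession as TNFRSF10A-DT, whose window shares 882 bp with that of TNFRSF10A, was at 0.20 ± 0.19.

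**Figure D3:**
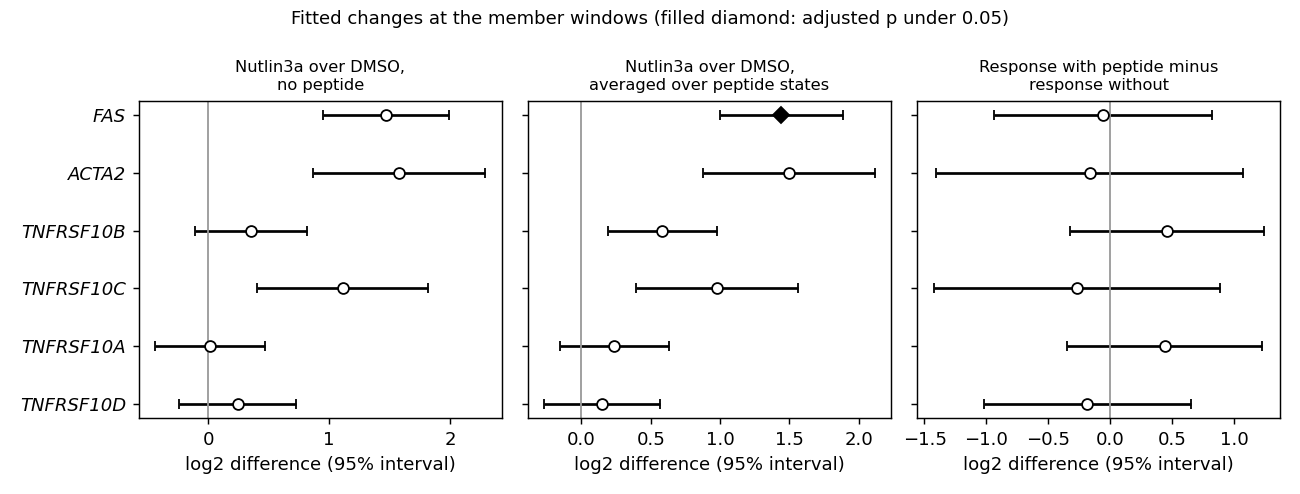
Fitted log2 differences with 95% intervals at 6 windows for Nutlin3a over DMSO without peptide, for Nutlin3a over DMSO averaged over peptide states, and for the response with peptide minus the response without. The filled diamond is FAS in the averaged comparison, at 1.44, and all intervals in the right panel include 0.

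Counted together, 4 of the 7 genes (FAS, ACTA2, TNFRSF10B and TNFRSF10C) had all 3 Nutlin3a libraries above all 3 DMSO libraries in scaled CPM, against 4.76% of the tested windows. The same 4 had an unadjusted p under 0.05 for higher levels in the averaged comparison, where the background is 1.00%. Without peptide, 3 of the 7 had one (FAS, ACTA2 and TNFRSF10C), where the background is 1.27%. FAS and ACTA2 share reads and count as less than 2 independent windows. All 7 passed the filter on low counts, FAS-AS1 through a single library.

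The response to Nutlin3a was then compared between cells with and without the peptide. No gene of the 7 and no window overall passed, with 0% called in either direction by edgeR. At an unadjusted p under 0.05, 107 windows were higher and 166 lower, none of them among the 7 genes, and DESeq2 and limma-voom also called 0. With the replicate block, edgeR called 5 windows lower and 0 higher, none of them among the 7 genes. The difference at FAS was -0.055 in log2 (95% interval -0.93 to 0.82), at ACTA2 -0.16 (-1.41 to 1.08) and at TNFRSF10C -0.27 (-1.43 to 0.89). It was 0.46 at TNFRSF10B (-0.32 to 1.24), 0.44 at TNFRSF10A (-0.35 to 1.23) and -0.18 at TNFRSF10D (-1.02 to 0.65). These intervals are wide, since each peptide group has 1 library that was assumed to vary like the pairs. At FAS the interval runs from 0.523 to 1.77 times the response without peptide, and a reduction within it was not detectable at this depth and number of libraries.

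The peptide was also set against no peptide, averaged over Nutlin3a and DMSO. Again 0% of the windows passed in either direction. At an unadjusted p under 0.05, 186 windows were higher and 618 lower by edgeR, and DESeq2 and limma-voom also called 0 after adjustment. Leaving FAS-AS1 aside, TNFRSF10C had the highest value, at 0.61 ± 0.27 in log2 with an unadjusted p of 0.0382, where the background is 0.718%, and an adjusted p of 1.00. TNFRSF10B followed at 0.37 ± 0.18 (unadjusted p = 0.0626). The values were 0.19 ± 0.21 at FAS, -0.16 ± 0.29 at ACTA2, -0.11 ± 0.19 at TNFRSF10A and -0.042 ± 0.20 at TNFRSF10D. Within replicate 2 and under Nutlin3a, the ratio of peptide to no peptide was 1.58 at TNFRSF10B (95% counting interval 1.26 to 1.99) and 1.01 at FAS (0.814 to 1.25). Under DMSO it was 1.13 at TNFRSF10B (0.856 to 1.48) and 1.27 at FAS (0.867 to 1.86). Each of these ratios rests on 1 library per condition. The peptide libraries are all of replicate 2, so the peptide is partly confounded with the replicate number.

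Levels were also set beside the inputs. FAS had a mean ChIP level of 1.35 times its mean input, ACTA2 1.16 times, TNFRSF10A 1.64 times, TNFRSF10B 2.43 times and TNFRSF10D 1.32 times, where the median of the tested windows was 0.713. Against the mean input of the same condition, the FAS ratio was 2.54, 3.22 and 1.67 in the Nutlin3a libraries (replicate 1, replicate 2, replicate 2 with peptide), and 1.52, 1.35 and 0.503 in the DMSO libraries. The FAS inputs rest on 1 to 33 counts each, so these ratios are imprecise.

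The windows whose profile over the 6 ChIP libraries was most like that of FAS were sought among 11461 windows with a mean count of at least 50. Likeness was the root mean square difference of centred log2 CPM. The closest were TP53INP1 (0.137), BBC3 (0.154), GDF15 (0.156), SESN1 (0.194) and DINOL (0.202), where the median window was at 0.789. Among the genes described here ACTA2 was at 0.322, TNFRSF10C at 0.353 and TNFRSF10B at 0.500. TP53INP1, the closest, had 122, 152 and 140 CPM in the Nutlin3a libraries (replicate 1, replicate 2, replicate 2 with peptide), against 39.8, 48.1 and 57.4 CPM in the DMSO libraries. TNFRSF10B was closest to DDIT4 (0.0730), BTBD19 (0.0873), PTP4A1 (0.0953), ATXN3 (0.109) and SETDB1 (0.110), with a median of 0.401. These are descriptions over libraries that share their depth and scaling, and no test was made of them.

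The neighbours within 200 kb did not pass the threshold. Around FAS, 4 of 6 neighbours had enough counts to be tested. The nearest on either side, ACTA2-AS1 and MIR4679-1, had mean counts of 15.5 and 2.50 per ChIP library. STAMBPL1, which had 189 counts on average, was at -0.26 ± 0.19 in log2. Around TNFRSF10B, all 7 neighbours were tested, and LOC286059 and RHOBTB2 had an unadjusted p under 0.05. RHOBTB2, named after its value was seen, had 56.6 and 52.6 CPM under Nutlin3a without peptide and 66.9 CPM with it, against 27.0 and 35.9 CPM under DMSO without peptide and 49.0 CPM with it. Its averaged difference was 0.60 ± 0.22 in log2 (unadjusted p = 0.0147, adjusted p = 1.00). LOC254896, the nearest on the other side, was at 0.19 ± 0.35 in the averaged comparison and at 1.09 ± 0.43 without peptide (unadjusted p = 0.0229, adjusted p = 0.982).

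None of the ligands, adaptors, caspases and related receptors of the pathway passed the threshold. Of 33 genes in the list, 32 had enough counts to be tested, the exception being EDA2R, a receptor of the same superfamily, with 2.50 counts on average. In the averaged comparison 15 were positive and 17 negative, and 1 had an unadjusted p under 0.05, TNFRSF21, another death receptor gene, at -0.44 ± 0.20 (unadjusted p = 0.0387). The median of the 32 was -0.015 in log2, against 0.0088 over all windows. Without peptide the counts were again 15 positive and 17 negative, with a median of -0.024, against 0.044 over all windows.

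**Figure D4:**
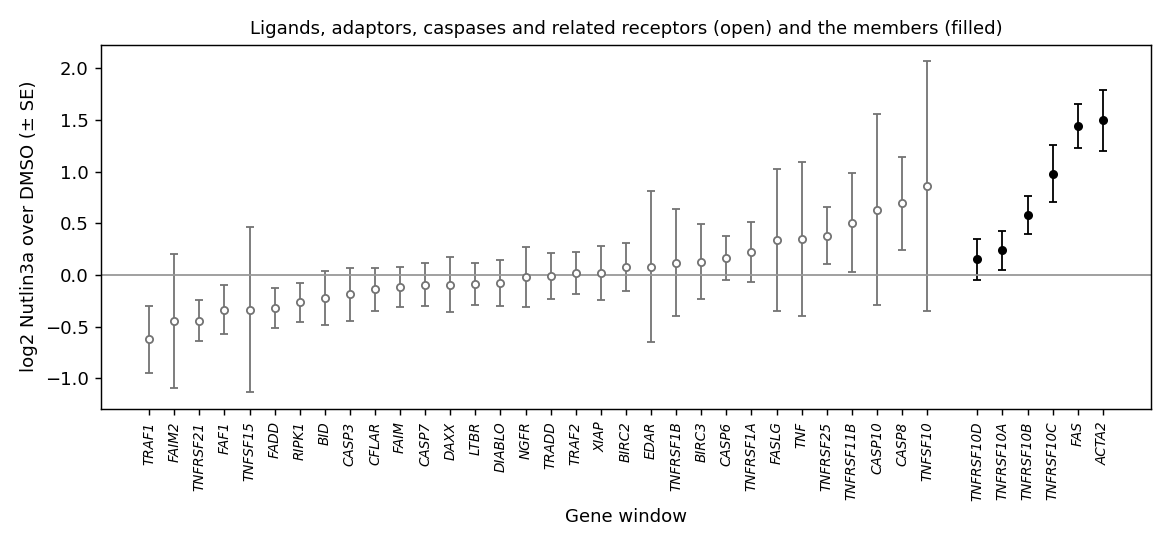
Fitted log2 change (± SE) under Nutlin3a against DMSO, averaged over peptide states, for 32 tested genes of the death receptor pathway (open, in order of their change) and for 6 of the genes described here (filled). The open points centre on a median of -0.015, and FAS at 1.44 and ACTA2 at 1.50 are above every open point.

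The ligand genes were hardly occupied. FASLG had 10.3 counts per ChIP library on average with a log2 difference of 0.34 ± 0.69, and TNFSF10, which encodes TRAIL, had 5.50 with 0.86 ± 1.21. Both errors are larger than the differences. The adaptor gene FADD, at a mean of 94.3 CPM, was at -0.32 ± 0.19. Among the caspases that FADD recruits, CASP8 was at 0.69 ± 0.45 and CASP10 at 0.63 ± 0.93. The CASP8 levels split by replicate number, with 56.6 CPM (Nutlin3a) and 42.5 CPM (DMSO) in replicate 1, against 10.7 to 22.3 CPM in the replicate 2 libraries. CFLAR, which encodes an inhibitor of caspase-8 activation, was at -0.14 ± 0.21. BID, whose product carries the signal of caspase-8 to mitochondria, was at -0.22 ± 0.26. TNFRSF11B, which encodes a soluble receptor that can bind TRAIL, was at 0.51 ± 0.48, and TNFRSF1A, the main tumour necrosis factor receptor gene, at 0.22 ± 0.29. None of these 9 genes passed the threshold.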

How the data were processed

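The deposited values were read counts made by the authors in 1 window of 1000 bp per gene. The genome build was hg38, per the submitters' processing notes, and the aligner and counter are not given in the sources used here. The authors also deposited a scaled signal per ChIP library, which equals the counts times 1 constant per library. Its derivation is not given, and it served only as an alternative scaling. The test of counts was the quasi-likelihood one of edgeR 4.0.16, run under R 4.3.3 (TMM factors 0.951 to 1.02, filterByExpr with a minimum count of 10, which kept 25901 windows) on the 6 ChIP libraries together, modelled as 4 group means, with 2 residual and 14.7 prior degrees of freedom. Adjustment was by Benjamini-Hochberg over all tested windows, and 0.05 was the threshold. Errors of log2 changes are standard errors. For single pairs of libraries, ratios were scaled by TMM and given exact conditional binomial intervals. The fit was tested on simulated data with known changes in windows above the median level. In the averaged comparison it recovered 7.46% of 1.5-fold, 46.3% of 2-fold and 98.5% of 4-fold changes. Without peptide these shares were 1.49%, 26.9% and 90.9%, and in each comparison 6 unchanged windows were called. Changes of 2-fold or less were thus often missed. Alternatives used DESeq2 1.42.0, limma 3.58.1 (voom), other scalings and filters, a replicate block and the leaving out of libraries.

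Named were all 7 genes, 10 of the pathway list, the nearest neighbours within 200 kb, and the 5 windows closest to FAS and to TNFRSF10B by likeness, plus any window on the list past the threshold. TNFRSF21 and RHOBTB2 fall outside this rule and were chosen after their values were seen. STAMBPL1, LOC389641 and the single markers TAGLN, LUM, DCN, COL3A1, KRT8, KRT18, KRT19, CDH1, CDX2, VIL1 and CDX1 also fall outside it. The genes, lists and tests were chosen with earlier results of these data known.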

Additional observations from a re-analysis of the deposited data

How the results depend on the processing

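FAS was called higher under Nutlin3a in the averaged comparison in 12 of 13 alternatives, with a log2 change of 1.36 to 1.87. It was lost with the authors' constants, which moved the median of all windows to 0.46, and 1.87 then had an adjusted p of 0.774. In all, 276 of the values for single genes kept their direction and side of the threshold, 16 passed the threshold newly and 1 no longer passed. The number of windows called in the comparison without peptide was 2, and became 8 with DESeq2, 4 with limma-voom, 8 with total counts, and 0 with the authors' constants, with a mean count of at least 50 and with the 4 libraries without peptide fitted alone. Leaving out 1 library gave 0 to 88 (for replicates 1 and 2, 32 and 39 without the Nutlin3a library, and 88 and 0 without the DMSO library). The 10 windows of the averaged comparison became 17 with DESeq2, 0 with the authors' constants and 13 to 42 when 1 library was left out (for replicates 1 and 2, 42 and 31 without the Nutlin3a library, and 20 and 13 without the DMSO library). The 0 windows for the difference between responses became 0 to 34 when 1 library was left out (5 without Nutlin3a replicate 2, and 34 without DMSO replicate 1). The 0 windows for the peptide became 76 with the authors' constants and 14 to 186 when 1 library was left out (for replicates 1 and 2, 26 and 176 without the Nutlin3a library, and 14 and 186 without the DMSO library). Of these peptide windows all 76 were lower with the authors' constants, as were all 26 without Nutlin3a replicate 1 and all 14 without DMSO replicate 1, 166 of the 176 without Nutlin3a replicate 2 and 185 of the 186 without DMSO replicate 2. The replicate 2 libraries alone, chosen after seeing the data, gave 60 windows in the averaged comparison and 17 for the peptide. The causes were not tested, except that fewer samples or windows entered some of these fits.

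The replicate numbers are shared by only 2 pairs without peptide, whose deviations correlated at 0.454, so they do not establish a pairing. The libraries did separate by replicate number along the first principal component described above. The number of windows called depended on whether the block was used. With the replicate block, 39 windows were called without peptide, 43 in the averaged comparison, 5 for the difference between responses and 1 for the peptide. All 5 for the difference between responses were lower, meaning a smaller response with peptide. When 1 library was left out, windows were called for that difference, all lower, only in fits that kept Nutlin3a replicate 1. This library stood apart from the others and has no counterpart with peptide. Without it, the median difference over all windows was 0.018 in log2, against -0.012 in the main fit. Its part in these calls was not tested. In the edgeR fit with the block, TNFRSF10C passed in the averaged comparison (adjusted p = 0.0309), as did ACTA2 (8.28e-07), and FAS and ACTA2 passed without peptide (1.26e-06 and 1.39e-05). These p-values rest in large part on degrees of freedom borrowed from the other windows.

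Small differences turned sign in 13 cases, none of them past the threshold. When 1 library was left out, the following ranges held: -0.082 to 0.13 at TNFRSF10A without peptide; for the difference between responses -0.21 to 0.11 at FAS, -0.67 to 0.19 at ACTA2 and -0.47 to 0.045 at TNFRSF10D; and for the peptide -0.34 to 0.092 at ACTA2 and -0.15 to 0.099 at TNFRSF10D. For the peptide, FAS became -0.068 with the authors' constants. With the replicate block and with the replicate 2 libraries alone, ACTA2 became 0.17 and 0.13, and TNFRSF10D 0.079 and 0.068. Depth limits FAS-AS1, whose counts were 0 to 15 per ChIP library, EDA2R, which was not tested, and FASLG, TNFSF10 and CASP10, whose standard errors in the averaged comparison were larger than the differences.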

Other observations

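The inputs varied more at FAS than the ChIP libraries did within a treatment. They are shallower and span all 4 conditions, with 1 to 33 counts at FAS, against 54 to 211 in the ChIP libraries. Counting error alone therefore gives them a wider spread. The highest FAS input was 108 CPM, in DMSO with peptide replicate 1, a condition and replicate number with no ChIP library here, and the median of the 8 inputs was 35.4 CPM. The lowest was 3.72 CPM, from 1 count. At ACTA2 the inputs ran from 7.45 to 71.8 CPM, and at TNFRSF10C from 3.26 to 70.7 CPM. TNFRSF10B inputs ran from 16.4 to 43.3 CPM and TNFRSF10D inputs from 55.7 to 93.1 CPM.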
